A study of Zea mays with 11 samples.

Results

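The genes mez2 and mez3 encode maize homologues of Enhancer of zeste, and their cytosine methylation was followed here in whole seed, ear leaf and endosperm of the inbred line Mo17. They were chosen by identifier, as GRMZM5G875502 (mez2) and GRMZM2G043484 (mez3), and are 2 of the 39475 nuclear gene models in the deposited tables. Whole-genome bisulfite sequencing was run on 2 libraries of whole seed (3 and 5 days after pollination), 1 library of ear leaf (13 days) and 8 libraries of dissected endosperm (7 and 9 to 11 days, then 13, 15, 20 and 25 days). All plants were field grown and self-pollinated, and no group was treated. Each stage has 1 library, so p-values measure the spread between libraries of different age and not between plants of one stage. Whole seed holds maternal tissue, embryo and endosperm together, and both seed samples are younger than every endosperm sample, so that tissue and age cannot be told apart.

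Enhancer of zeste proteins are the catalytic subunits of Polycomb repressive complex 2, which trimethylates a lysine of histone H3 and keeps genes silent. In cereal endosperm this complex is tied to genomic imprinting: of the maize family, mez1 is known to be expressed from the maternal allele in endosperm, and mez2 and mez3 from both alleles. Plant cytosines are methylated before a G (CG) and also in CHG and CHH, where H stands for any base but G. A maintenance methyltransferase keeps CG, chromomethylases keep CHG, and small RNAs guide much of CHH. CG methylation inside genes is common in expressed plant genes, whereas CHG and CHH methylation marks transposons and repeats.

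The gene mez3 lies on chromosome 1 at 49406199 to 49416182 on the minus strand and spans 9984 bases. The gene mez2 lies on chromosome 9 at 135256308 to 135271042 on the plus strand and spans 14735 bases. These are the coordinates of the deposited files; no source used here names their genome build. No other gene model overlapped either gene. On the upstream side the nearest gene model was 198630 bases away for mez3 (GRMZM5G824629) and 102283 bases away for mez2 (GRMZM2G121303). On the downstream side the gaps were 11724 bases for mez3 and 232 bases for mez2. For each gene the files give the methylation level in the gene body, introns included, and in an upstream region; no source used here gives its width.

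The 11 libraries held 141135636 to 218350456 cytosine calls in regions with a methylated count above 0. Both genes passed the minimum of 10 calls per library in every region and context. The least covered value was mez2 upstream CHG in leaf, on 182 calls. In the body of mez2 all 33 methylated counts were even, against 16 of 33 in its upstream region and in the body of mez3, as if each call there had been counted 2 times in the deposited table. The same held in 24.2% of gene bodies and 1.59% of upstream regions with at least 10 counts above 0, and the library totals above include these calls as deposited. A level in percent does not change with this, and calls in the body of mez2 were halved for its intervals. CHH in the bodies then rested on 1392 to 5067 calls. Wilson intervals at 95% are given for single libraries, and they cover counting error only. The mean over all genes of upstream CHG was 56.0 and 54.6% in the seed libraries, 56.2% in leaf and 42.2 to 50.8% in endosperm. Chloroplast gene bodies, which should carry little methylation, read 6.60 and 5.79% in CG in the 3- and 5-day seed, 2.26% in leaf and 1.97 to 2.85% in endosperm. In CHG they read 8.59 and 6.38% in the 3- and 5-day seed, 2.41% in leaf and 2.10 to 2.72% in endosperm. In CHH they read 0.956 and 0.828% in seed, 0.669% in leaf and 0.697 to 1.02% in endosperm. The part of these library differences in the results below was not tested.

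Upstream of the genes, mez3 was heavily methylated and mez2 moderately so. Over the 11 libraries mez3 had an upstream CG level of 84.0% ± 4.45 and mez2 one of 43.6% ± 9.94 (SD, n = 11 each). The difference of mez3 from mez2 averaged 40.5 percentage points and was above 0 in 11 of 11 libraries (exact paired permutation test, two-sided, p = 0.000977, adjusted over 6 tests p = 0.00195). That p is the smallest the 11 pairs can give. In upstream CHG the levels were 68.7% ± 7.34 in mez3 and 34.8% ± 10.5 in mez2 (SD, n = 11 each), again with mez3 higher in 11 of 11 libraries (same exact test, adjusted p = 0.00195). In upstream CHH they were 7.12% ± 1.71 in mez3 and 3.19% ± 1.85 in mez2 (SD, n = 11 each), with mez3 higher in 10 of 11 libraries (exact permutation, adjusted p = 0.00439). The exception was the 11-day endosperm, at 3.58% in mez3 and 4.96% in mez2.

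In the gene bodies the genes differed in CG, and in the other contexts the test was not passed. Body CG was 45.3% ± 4.94 in mez3 and 21.7% ± 5.34 in mez2 (SD, n = 11 each; exact paired permutation, adjusted p = 0.00195), higher in mez3 in 11 of 11 libraries. Body CHG was 12.3% ± 3.06 in mez3 and 11.1% ± 5.72 in mez2, with mez3 higher in 5 of 11 libraries (mean difference 1.15 percentage points, SD 6.40, or -0.06 without the 10-day endosperm; exact permutation, adjusted p = 0.574). Body CHH was 1.75% ± 0.784 in mez3 and 1.32% ± 0.802 in mez2, with mez3 higher in 9 of 11 libraries (mean difference 0.432 percentage points, SD 1.27, exact permutation, adjusted p = 0.348). Without the 7-day endosperm, where mez3 had 0.620% and mez2 3.45%, this difference was 0.758 points and passed (exact permutation, adjusted p = 0.00703). Leaving out that library, where mez2 exceeded mez3 the most, raises the mean difference by construction. Many of these body CHH levels lay close to the CHH level of the chloroplast genes.

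Against all genes tested, both genes had more body methylation than most. The mean endosperm level of mez3 exceeded that of 68.9% of genes in body CG and 66.0% in body CHG, and that of mez2 exceeded 54.7% and 62.1% of genes. Upstream the genes fell on either side of the middle in CG and CHG, and both lay above it in CHH. The mean endosperm level of mez3 exceeded that of 73.2% of genes in upstream CG, 73.3% in upstream CHG and 82.7% in upstream CHH. For mez2 these shares were 31.6% in CG, 33.1% in CHG and 59.7% in CHH.

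**Figure D1:**
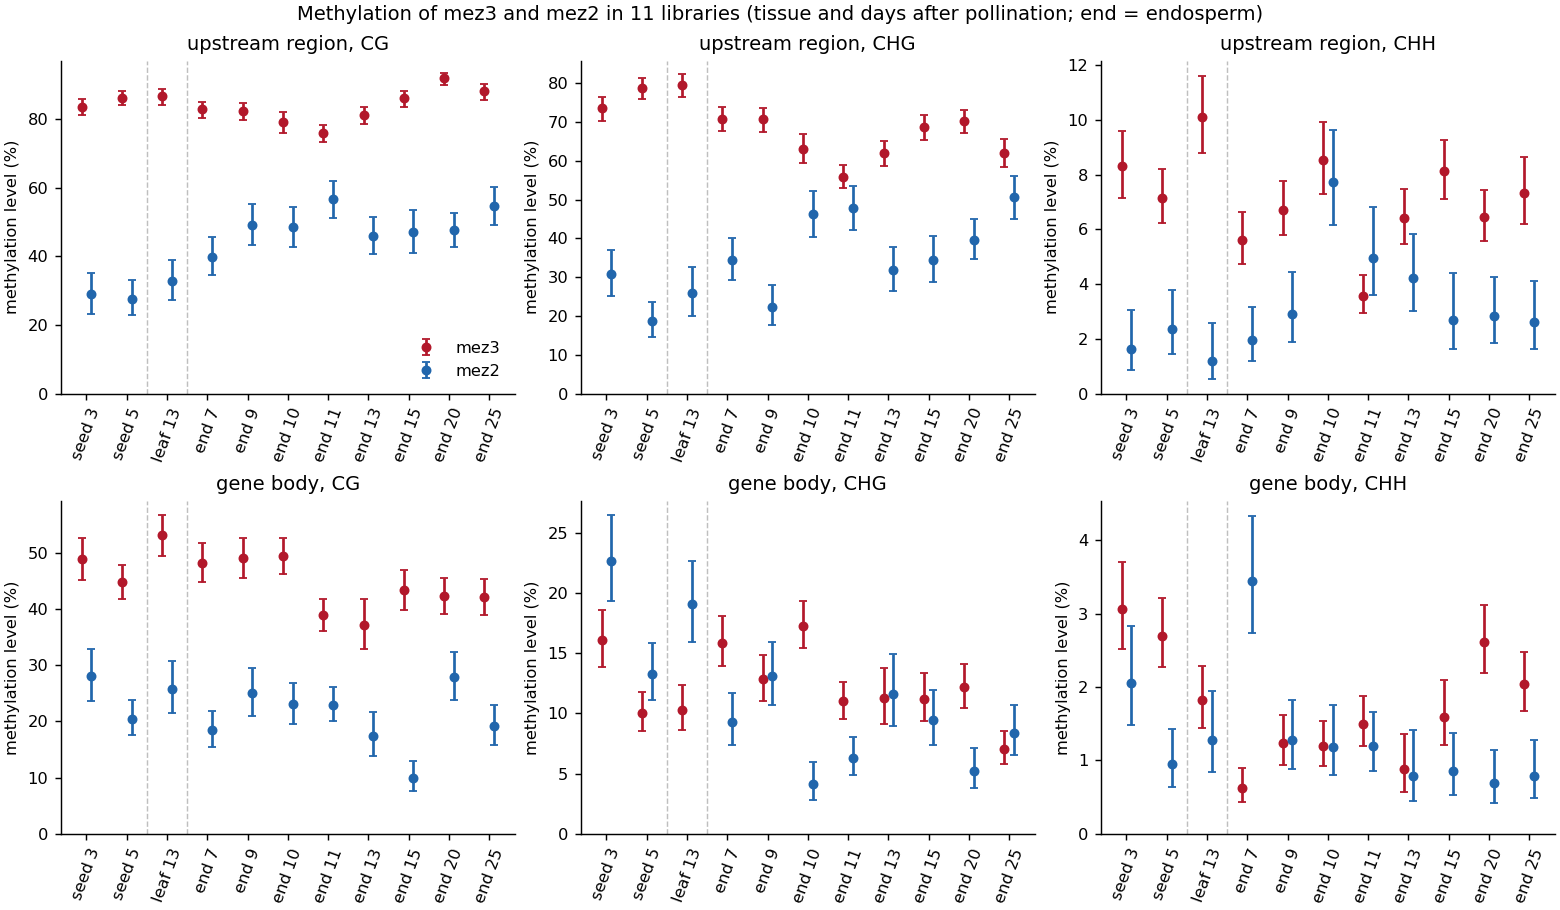
Methylation level (%) of mez3 (red) and mez2 (blue) in each of the 11 libraries, by region and context; the horizontal axis gives tissue and days after pollination, bars are Wilson intervals at 95%, and each panel has its own vertical scale from 0. Upstream CG of mez2 lies at 28.9 and 27.6% in seed and 32.8% in leaf, below all 8 endosperm libraries, while mez3 stays between 75.8 and 91.9% throughout.

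The upstream region of mez2 read lower in CG in whole seed and leaf than in every endosperm library, a separation that few genes showed, but the seed difference did not pass the test over all genes. The level was 28.9% (interval 23.3 to 35.2) in 3-day seed and 27.6% (22.8 to 33.0) in 5-day seed. It was 32.8% (27.2 to 38.9) in leaf. In endosperm it was 39.9% at its lowest (7 days, 34.5 to 45.5), 48.1% at the median and 56.6% at its highest (11 days, 51.1 to 62.0). Both seed libraries and the leaf thus lay below all 8 endosperm libraries. In order of level, each library's interval overlapped that of its neighbour, also for leaf and 7-day endosperm.

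For mez2 the whole seed averaged 28.2% ± 0.926 (SD, n = 2) and endosperm 48.7% ± 5.18 (SD, n = 8) in upstream CG, a difference of -20.5 percentage points (SE 3.84). In the limma fit across 36099 genes its unadjusted p was 0.000299 and its adjusted p was 0.0526, so it did not pass the threshold of 0.05. It passed with the minimum raised to 20 calls (limma adjusted p = 0.0476), where 233 of 34348 genes passed. It also passed without the 7-day endosperm (limma adjusted p = 0.0271). Leaving out that library, the lowest and youngest of the 8, widens the difference by construction. Without 1 library at a time the difference ranged over -21.8 to -19.4, and it passed only without the 7-day endosperm. With day as a covariate it was -16.9, and against the 7- and 9-day endosperm alone -16.3 (limma adjusted p = 0.336 and 0.466). In this context 0.518% of all genes passed, and 0.0111% passed as lower in seed. Without any test, 1.34% of genes had both seed libraries below all 8 endosperm libraries, and 0.283% had the leaf there as well. A seed difference more negative than that of mez2 was found in 0.468% of genes.

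Upstream CHG of mez2 was lower on average in seed too, with wider spread. It was 30.8% in 3-day seed, 18.7% in 5-day seed and 25.8% in leaf, against 22.4% (9 days), a median of 37.1% and 50.7% (25 days) in endosperm. The groups overlapped through the 9-day endosperm, which lay below the 3-day seed and the leaf. The seed difference was -13.7 percentage points (SE 6.81, limma adjusted p = 0.166). It was -7.69 without the 5-day seed, -6.95 with day as a covariate and -3.74 against the 7- and 9-day endosperm alone. The median over all genes was +8.67, and after subtraction of each library's median over genes the mez2 difference was -25.4 (limma adjusted p = 0.0821). Over all genes 14.7% passed, with 0.0250% passing as lower in seed. A more negative difference was found in 0.341% of genes. Upstream CHH of mez2 was 1.62 and 2.36% in seed and 1.19% in leaf, against 1.94% (7 days), a median of 2.87% and 7.73% (10 days) in endosperm. Its seed difference of -1.74 percentage points (SE 1.33) had a limma adjusted p of 0.544, in a context where 7.53% of genes passed.

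In the body of mez2, CHG methylation ran the other way and was above every endosperm library in seed and leaf, again without passing the test. It was 22.7% (interval 19.3 to 26.5) in 3-day seed, 13.3% (11.1 to 15.9) in 5-day seed and 19.1% (15.97 to 22.7) in leaf. In endosperm it was 4.12% at its lowest (10 days), 8.85% at the median and 13.1% at its highest (9 days, 10.7 to 15.9). The 5-day seed and the 9-day endosperm were equal within counting error, whereas the intervals of the 3-day seed and, narrowly, the leaf lay above that of every endosperm library. The seed difference was +9.58 percentage points (SE 2.78, limma adjusted p = 0.0876). It was +4.88 without the 3-day seed and +14.3 without the 5-day seed. In body CHG 4.20% of genes passed, 15.9% had both seed libraries above all 8 endosperm libraries and 11.6% had the leaf there as well, so this separation was common.

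Body CG of mez2 was 28.1 and 20.5% in seed and 25.9% in leaf, against 9.98% (15 days), a median of 21.1% and 27.9% (20 days) in endosperm. The groups overlapped, with a seed difference of +3.80 percentage points (SE 4.11, limma adjusted p = 0.891; 1.24% of genes passed). That difference was +0.01 without the 3-day seed and +7.58 without the 5-day seed. Body CHH of mez2 was 2.05 and 0.95% in seed and 1.28% in leaf, against 0.690% (20 days), a median of 1.02% and 3.45% (7 days) in endosperm. Its seed difference was +0.22 percentage points (SE 0.658, limma adjusted p = 0.920; 5.42% of genes passed), a sign that turned under other settings, with -0.12 after subtraction of library medians.

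Within mez2 the upstream region was also set against the gene body of the same library. This recombines the levels given above, so a separation here is no further support. Of these levels, upstream CG and body CHG had separated, while body CG and upstream CHG overlapped between the groups. Upstream CG exceeded body CG by 0.820 and 7.08 percentage points in 3- and 5-day seed and by 6.93 in leaf. In the 8 endosperm libraries it did so by 19.8 (20 days) to 37.2 (15 days). Upstream CHG exceeded body CHG by 8.06 and 5.39 points in seed and 6.73 in leaf, against 9.34 (9 days) to 42.3 (25 days) in endosperm. Seed and leaf thus lay below all 8 endosperm libraries in both contexts, as in 2.36% of genes for CG and 1.83% for CHG. In mez3 the ranges overlapped for CG, at 34.6 and 41.4 points in seed and 33.5 in leaf against 29.7 to 49.5 in endosperm. In CHG the difference in mez3 was 57.5 and 68.8 points in seed and 69.3 in leaf, against 44.95 to 58.1 in endosperm, so that the 5-day seed and the leaf lay above the endosperm range.

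**Figure D2:**
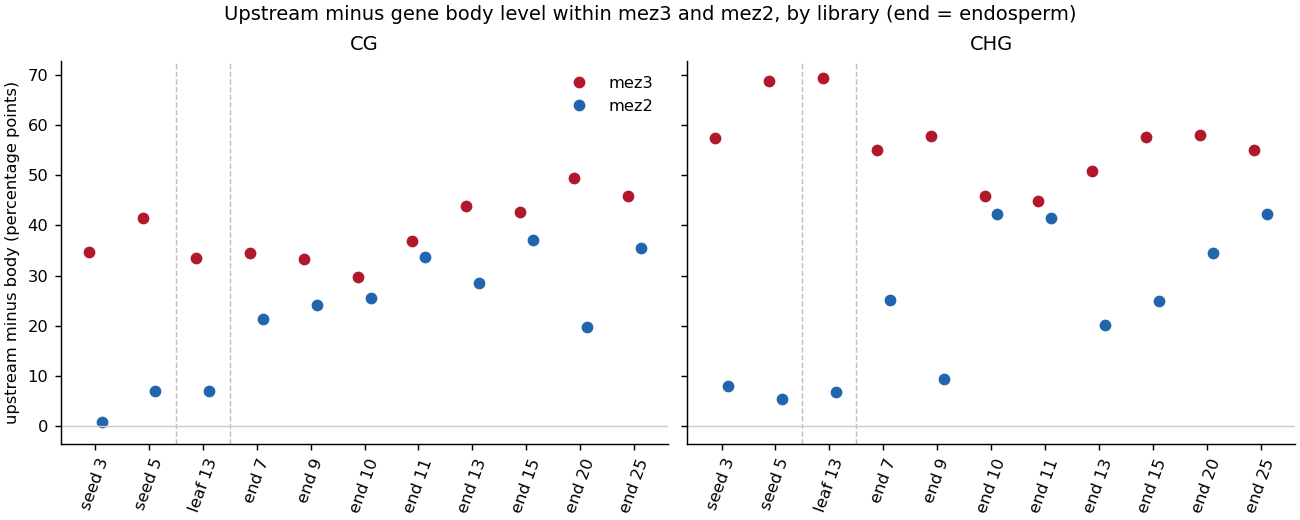
Upstream level minus gene body level (percentage points) of mez3 (red) and mez2 (blue) in each library, for CG (left) and CHG (right), with tissue and days after pollination on the horizontal axis. For mez2 the seed and leaf values lie between 0.820 and 8.06, below every endosperm value.

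A combination set up after these values were seen was counted over all genes: seed and leaf below all 8 endosperm libraries in upstream CG and above all 8 in body CHG. It was met by 5 of 29533 genes (0.0169%), namely mez2, rnc1 (GRMZM2G035820) and the unnamed models GRMZM2G301294, GRMZM5G861900 and GRMZM2G161768. Alone, the upstream CG part was met by 0.283% of genes tested there and the body CHG part by 11.6%. The count describes how rare the combination was and is no test, since mez2 set its terms.

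The upstream region of mez3 read higher in CHG in whole seed and leaf than in every endosperm library, as many genes did, and its seed difference did not pass the test. Its CHG level was 73.6% (interval 70.3 to 76.6) in 3-day seed, 78.8% (76.1 to 81.3) in 5-day seed and 79.6% (76.5 to 82.4) in leaf. In endosperm it was 56.0% at its lowest (11 days), 66.0% at the median and 70.8% at its highest (7 days). Both seed libraries and the leaf lay above all 8 endosperm libraries, as in 26.4% of genes, and 31.9% had both seed libraries there. The seed difference was +10.7 percentage points (SE 4.13, limma adjusted p = 0.0917), beside a median of +8.67 over all genes, and it was -0.91 after subtraction of each library's median over genes, beside a median of -2.96 on that scale. Against the 7- and 9-day endosperm alone it was +5.43.

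Upstream CG and CHH of mez3 overlapped between seed and endosperm. Upstream CG was 83.7 and 86.3% in seed and 86.7% in leaf, against 75.8% (11 days), a median of 82.6% and 91.9% (20 days) in endosperm. The seed difference was +1.53 percentage points (SE 3.81, limma adjusted p = 0.967), or -1.55 after subtraction of library medians. Upstream CHH was 8.30 and 7.16% in seed and 10.1% in leaf, against 3.58% (11 days), a median of 6.59% and 8.52% (10 days) in endosperm. Its seed difference was +1.14 percentage points (SE 1.12, limma adjusted p = 0.668).

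In the body of mez3, CHH read higher in both seed libraries than in endosperm without passing the test, and the other contexts overlapped. Body CHH was 3.06% (interval 2.52 to 3.71) in 3-day seed, 2.70% (2.27 to 3.21) in 5-day seed and 1.82% (1.45 to 2.29) in leaf. In endosperm it was 0.620% at its lowest (7 days), 1.37% at the median and 2.61% at its highest (20 days, 2.18 to 3.12). Both seed libraries lay above all 8 endosperm libraries, as in 12.2% of genes, and the 5-day seed and 20-day endosperm were equal within counting error. The difference was +1.42 percentage points (SE 0.466, limma adjusted p = 0.120), in a context where 5.42% of genes passed. It passed with day as a covariate (+2.23, limma adjusted p = 0.0321), where 774 of 32523 genes passed. It also passed without the 20-day library (+1.59, limma adjusted p = 0.0479). Leaving out that library, the highest of the 8, widens the difference by construction. Without 1 library at a time the difference ranged over +1.24 to +1.60, and it passed only without the 20-day library.

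Body CG of mez3 was 49.0 and 44.8% in seed and 53.2% in leaf, against 37.3% (13 days), a median of 42.9% and 49.5% (10 days) in endosperm. The seed difference was +3.04 percentage points (SE 3.35, limma adjusted p = 0.894), or -0.34 with day as a covariate. Body CHG of mez3 was 16.1 and 10.0% in seed and 10.3% in leaf, against 7.02% (25 days), a median of 11.7% and 17.3% (10 days) in endosperm. Its difference was +0.73 percentage points (SE 2.49, limma adjusted p = 0.928), or -2.31 without the 3-day seed and -3.37 with day as a covariate.

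Whether the contrast of seed with endosperm differed between the genes was tested on the difference of mez3 from mez2 in each library. In upstream CG that difference was 54.8 and 58.7 percentage points in 3- and 5-day seed, against 19.2 to 44.2 in endosperm. The groups did not overlap, which gave an exact permutation p of 0.0222, the smallest that 45 splits allow, and an adjusted p over 6 tests of 0.133. In upstream CHG the difference was 42.8 and 60.1 points in seed, against 8.10 to 48.3 in endosperm (exact permutation p = 0.0667, adjusted p = 0.133). In body CHG it was -6.61 and -3.28 in seed, against -1.36 to 13.2 in endosperm (exact permutation p = 0.0667, adjusted p = 0.133). In upstream CHH, body CHH and body CG the adjusted p was 0.167, 0.347 and 0.889 (exact permutation). In the fits for each gene, 0 of the 12 combinations of gene, region and context passed for seed against endosperm with limma or the quasi-binomial model, and 4 had an unadjusted limma p under 0.05. Over all genes the share with such a p was smallest in upstream CG (3503 of 36099) and largest in upstream CHG (13480 of 36072). A difference between the genes in this contrast was not shown past the threshold in any of the 6 measures. The exact test could hardly show one, since the smallest p of 0.0222 in 1 measure alone cannot pass the adjustment over 6 tests. The failure to pass is therefore not read as likeness of the genes.

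The leaf, the control tissue, is 1 library and its differences have no test. It lay outside the range of the 8 endosperm libraries in 6 of the 12 combinations of gene, region and context. For mez2 it was above that range in body CHG (as in 26.7% of genes). It was below the range in upstream CG (as in 2167 of 36099 genes, 6.0%) and upstream CHH (as in 6.47%). For mez3 it was above the range in body CG (24.8%), upstream CHG (50.7%) and upstream CHH (22.0%). Against the endosperm of the same age, 13 days, the leaf had 13.2 percentage points less upstream CG and 5.96 less upstream CHG in mez2. In mez3 it had 5.52 more upstream CG and 17.6 more upstream CHG than that library.

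Within endosperm the change with day was fitted over the 18 days from day 7 to day 25. None of the 12 combinations passed for these genes with limma or the quasi-binomial model, where 0% of all genes passed in CG and CHG of both regions, 0.0277% in body CHH and 1.85% in upstream CHH. With limma 0 genes passed in those CG and CHG fits, 1630 to 4060 genes had an unadjusted p under 0.05, and the quasi-binomial model gave 0 or 1 gene. An unadjusted limma p under 0.05 was found in 2498 of 32523 genes in body CHH, 2363 of 31151 in body CHG and 2017 of 36099 in upstream CG. For mez3, these 3 combinations had such a p. Its body CHH was 0.620, 1.23, 1.19, 1.50, 0.880, 1.59, 2.61 and 2.04% from day 7 to day 25, a fitted change of +1.54 percentage points (SE 0.481, limma adjusted p = 0.536). Its body CHG changed by -7.20 points (SE 2.35, limma adjusted p = 0.576), with 15.9% at day 7 and 7.02% at day 25. Its upstream CG changed by +10.9 points (SE 4.61, limma adjusted p = 0.858), with 82.9% at day 7, 75.8% at day 11 and 88.1% at day 25.

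For mez2, the fitted change of upstream CHG was +13.4 percentage points (SE 9.09, limma adjusted p = 0.614), beside a median of -4.71 over all genes. The levels were 34.5, 22.4, 46.3, 47.9, 31.8, 34.4, 39.7 and 50.7% from day 7 to day 25, with no steady order. A larger change was found in 2.03% of genes, and the change was +5.67 without the 25-day library and +8.19 without the 9-day library. Its body CHH changed by -1.63 points (SE 0.805, limma adjusted p = 0.686), and without the 7-day library by -0.58. The remaining 7 combinations had an unadjusted limma p of 0.244 or more.

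Among the 8 endosperm libraries, which differ in age, the SD of upstream CG was 5.11 percentage points in mez3 and 5.18 in mez2, and binomial counting of the calls alone would give 1.24 and 2.89. In body CG the SD was 4.65 in mez3 and 5.54 in mez2, and counting alone would give 1.77 and 1.84. With 1 library a stage, the spread between samples of one age was not measured. The SD of mez2 upstream CHG, 9.51, exceeded that of 77.4% of genes.

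The other Polycomb genes with a name in the gene table were mez1, fie1, fie2, vef101 and nfc101 to nfc104. They encode, besides the catalytic mez1, homologues of the plant FIE, EMF2 and MSI1 subunits of the same complex. In whole seed against endosperm, the difference in upstream CHG was above 0 in 8 of 8 of them and 2 passed, with a median of +12.5 percentage points beside +8.67 over all genes, of which 14.7% passed. Over all genes the 5th percentile of this difference was -3.35 and the 95th +22.6. Most genes thus were above 0 as well. After subtraction of library medians 4 of 8 were above 0 and 0 passed, and over all genes 76 passed in place of 5291. One was fie2 (GRMZM2G148924), which averaged 78.7% over the seed libraries (SD 10.3, n = 2), against 32.7% over endosperm (SD 13.1, n = 8; limma adjusted p = 0.0190). The other was nfc102 (GRMZM2G316113), with 92.9% in seed against 75.2% in endosperm (limma adjusted p = 0.0274). Call counts of fie2 are not given here, and it was not tested in upstream CG. In upstream CHG it was tested under 10 other settings, against 11 for nfc102. Among the 10 Polycomb genes measured there, mez2 was the exception below 0 in the levels as deposited. In upstream CG 5 of 7 were above 0 (2 of 7 after subtraction of library medians) and 0 passed (0.518% of all genes). The median over all genes was +1.38 there, or -1.69 after that subtraction. The mez1 gene (GRMZM2G157820), the closest in function, had little upstream methylation: 9.50% ± 7.72 (SD, n = 2) CG in seed, 10.5% in leaf and 11.1% ± 8.97 (SD, n = 8) in endosperm. Its body CG was 28.2% in seed, 36.4% in leaf and 34.0% in endosperm.

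In the gene body, the seed difference in CHG was above 0 in 5 of 8 Polycomb genes and 2 passed (4.20% of all genes passed), fie1 (GRMZM2G118205) and nfc102, the second with 59.1% in seed against 44.1% in endosperm (limma adjusted p = 0.0210). The median difference over all genes was +0.738 percentage points in body CHG. The imprinted fie1, known to be demethylated on the maternal allele in endosperm, had 56.8% body CHG in seed, 65.2% in leaf and 19.9% in endosperm (limma adjusted p = 0.0124). It also was the 1 of 8 that passed in body CG (1.24% of all genes), with 80.7% in seed, 84.1% in leaf and 30.7% in endosperm (limma adjusted p = 0.0220). In body CHH 1 of 8 passed (5.42% of all genes), nfc104 (GRMZM2G032711), at 2.81% in seed and 1.33% in endosperm (limma adjusted p = 0.0247). In upstream CHH 3 of 8 were above 0 (2 of 8 after subtraction of library medians) and 0 passed (7.53% of all genes). The list median was -0.116 percentage points beside +0.740 over all genes, or -1.14 beside -0.286 after that subtraction. With day in endosperm, 0 of the 8 passed in any region or context, and the change of upstream CHG was above 0 in 1 of 8 (4 of 8 after subtraction of library medians). Over all genes the median of that change was -4.71 percentage points (+2.63 after that subtraction). Each of the 6 Polycomb calls was lost without the 3-day seed and 5 of them without the 5-day seed, body CHG of fie1 being the exception. The nfc104 call was also lost after subtraction of library medians, on the arcsine scale and with the quasi-binomial model. Body CG of fie1 was lost with the quasi-binomial model, and body CHG of nfc102 with trended and robust moderation. None of the 6 passed with day as a covariate or against the 7- and 9-day endosperm alone.

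The SET-domain genes carry the catalytic domain that Enhancer of zeste proteins share with other histone methyltransferases. The seed difference in upstream CHG was above 0 in 8 of 8 of them (3 of 8 after subtraction of library medians), the median being +8.63 percentage points, and 2 passed (0 after that subtraction), where 14.7% of all genes passed. The median over all genes was +8.67 there, so most genes were above 0 as well. For sdg118 (GRMZM2G054380) the seed libraries averaged 59.2% (SD 15.7, n = 2), against 19.0% over endosperm (SD 8.13, n = 8; limma adjusted p = 0.0138). For SET104 (GRMZM2G021044) the means were 71.5% in seed and 57.2% in endosperm (limma adjusted p = 0.0219). In body CHH 2 of 8 passed (5.42% of all genes): sdg110 (GRMZM2G130910), at 4.15% in seed and 2.04% in endosperm (limma adjusted p = 0.0138), and sdg118, at 3.40% in seed and 1.86% in endosperm (limma adjusted p = 0.0339). In body CG, body CHG, upstream CG and upstream CHH 0 of 8 passed, where 1.24%, 4.20%, 0.518% and 7.53% of all genes did. With day, SET102 (GRMZM2G147619) was the 1 gene of the list that passed, in upstream CHH (1.85% of all genes), by +17.3 percentage points (SE 2.73, limma adjusted p = 0.0304). Each of the 4 seed calls was lost without the 3-day seed and 3 of them without the 5-day seed, body CHH of sdg110 being the exception. Body CHH of sdg118 was also lost without any 1 of 5 endosperm libraries and after subtraction of library medians. The same call was lost on the arcsine scale, with trended and robust moderation and with the quasi-binomial model. Body CHH of sdg110 was lost on the arcsine scale. None of the 4 passed with day as a covariate or against the 7- and 9-day endosperm alone, and the SET102 call was lost without any 1 of 5 of the 8 libraries. It was also lost on the arcsine scale, with trended and robust moderation and with the quasi-binomial model. Over all genes 33, 0 and 27 passed in that measure under these settings, in place of 693. In the measures in which 0 genes of a list passed with limma, 0 to 2 genes had an unadjusted p under 0.05, and the quasi-binomial model called 0, apart from 1 Polycomb gene for seed. Over all genes such a p was found in 1630 of 30228 (day, body CG) to 7865 of 37531 (seed, upstream CHH) in these measures.

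**Figure D3:**
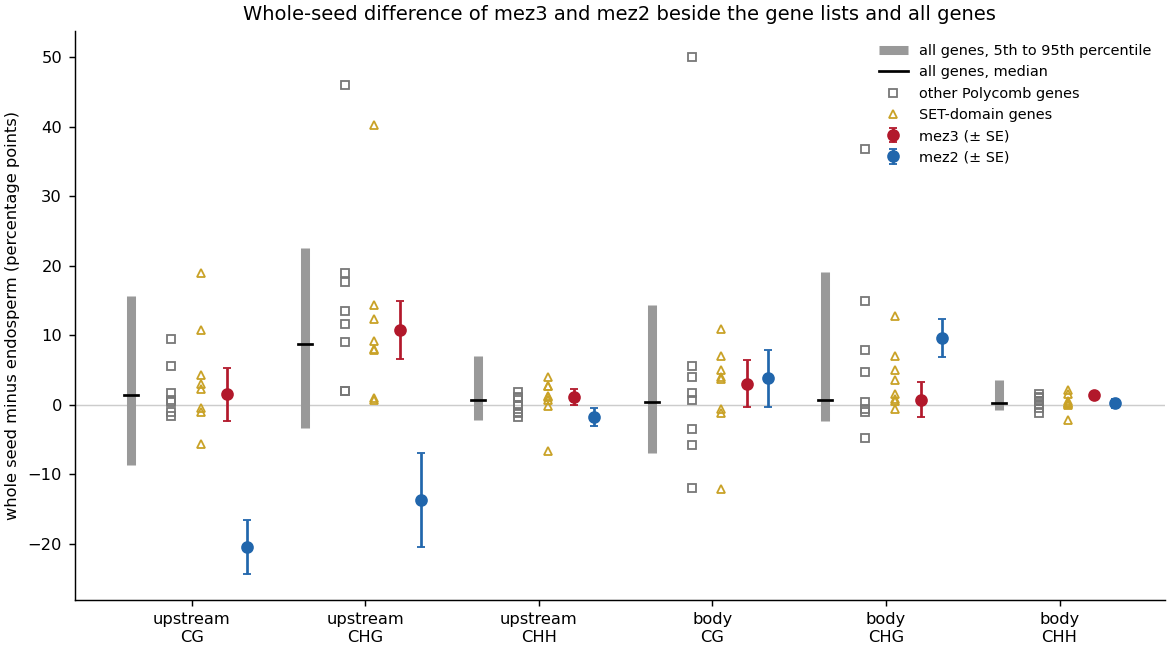
Whole seed minus endosperm (percentage points) for mez3 (red) and mez2 (blue) with the SE of the fit, for the 8 other Polycomb genes (squares, 7 in upstream CG) and 8 SET-domain genes (triangles), and for all genes tested (grey bar from the 5th to the 95th percentile, black line at the median). In upstream CHG the 16 listed genes and mez3 lie above 0 and mez2 lies at -13.7. The grey bar there runs from -3.35 to +22.6.

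The genes with the most similar pattern to each were sought among 193 gene models with a RefSeq symbol, by the mean absolute difference of levels over the 11 libraries, with each of 6 measures scaled by its SD over all genes. For mez3 they were sm1 (GRMZM2G031311) at 0.277 SD, PBF (GRMZM2G146267) at 0.330 SD and TUBB2 (GRMZM2G334899) at 0.394 SD. For mez2 they were dhar1 (GRMZM5G855672) at 0.316 SD, umc1467 (GRMZM2G134367) at 0.347 SD and SOL (GRMZM2G075262) at 0.357 SD. The distance between mez3 and mez2 was 0.769 SD. The median distance over the 193 genes was 0.736 SD for mez3 and 0.634 SD for mez2, so these genes were no more alike than a middling pair. Of the gene models next to them, GRMZM5G824629 on the upstream side of mez3 had 94.3% upstream CG in seed, 96.8% in leaf and 92.9% in endosperm. GRMZM2G121303 on the upstream side of mez2 had 53.5% in seed, 60.5% in leaf and 60.5% in endosperm. In upstream CHG it was higher in seed, at 63.5% against 53.5% in endosperm. On the downstream side of mez2, AC233955.1_FG009 had 15.4% upstream CG in seed, 9.38% in leaf and 8.45% in endosperm. On that side of mez3, GRMZM2G092442 had 42.7% upstream CG in seed, 63.3% in leaf and 30.9% in endosperm.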

How the data were processed

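DNA methylation was measured by whole-genome bisulfite sequencing in 11 libraries, 1 per stage. Per the submitters' processing notes the authors used cutadapt, Bowtie2 and Bismark; no source used here gives settings. The deposited count columns hold methylated calls per region and context, per the file headers, and the deposited percent columns, made by the authors, the methylated share of calls. Total calls were recovered as count over level. For 800279 values where 2 decimals fix the total within 0.1 call, 100.0% gave a whole number. Totals behind a count of 0 were estimated from the other contexts. Gene regions were taken as counted 2 times where every methylated count was even and at least 10 were above 0. No pair of libraries held identical values.

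Levels in percent entered limma (version 3.58.1, under R 4.3.3) across all nuclear genes with at least 10 calls in each library and, for CG and CHG, a mean of at least 1%, with Benjamini-Hochberg adjustment over all genes tested and a threshold of 0.05. Seed was compared with endosperm with all 11 libraries in the fit, and day was a number over 8 endosperm libraries. The genes were compared by exact permutation with scipy 1.17.1, numpy 2.4.6 and pandas 2.3.3 under Python 3.11.15, and matplotlib 3.10.9 drew the figures. The fits were also run on simulated data with planted changes, and the outcome is not reported here. Alternatives were other call minimums, no filter on the mean level, the arcsine scale, a quasi-binomial model on the counts, trended and robust moderation, subtraction of library medians, a day covariate, and leaving out libraries. The exact test of seed against endosperm per gene, and the minimum of 10 calls applied after halving the calls of gene regions with even counts throughout, were added after seeing the data.

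Names came from the symbols and synonyms of a RefSeq table of assembly Zm-B73-REFERENCE-NAM-5.0, used for names only, which matched 18775 gene models. The lists are all gene models named mez, fie, nfc, vef, emf, lhp, msi, clf, swn or ring (Polycomb) or sdg or set (SET-domain) and a number. The most similar genes were sought only among models with a name in the symbol column. Up to 4 list members past the threshold were named per contrast and measure, with mez1 added by its family. The members, lists and tests were chosen with earlier results of these data known.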

Additional observations from a re-analysis of the deposited data

Results flagged for a closer look

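In mez2 body CHH, the 7-day endosperm stood apart from the other endosperm libraries. Its level was 3.45% (Wilson interval 2.74 to 4.34), the next highest was 1.27% and the lowest was 0.690%, so that the gap took 0.790 of the range, above Dixon's 95% critical value of 0.526 for 8 samples. In the same library body CHH of mez3 was 0.620%, the lowest of its 8 endosperm values, and the chloroplast gene bodies read 0.855%. Of 12 such groups tested this was the 1 that met the criterion, and chance meets it in about 1 of 20 groups.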

How the results depend on the processing

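In the comparison of mez3 with mez2, 64 of 66 values without 1 library and 12 of 12 under other settings kept their direction and their side of the threshold. For seed against endosperm these counts were 115 of 120 and 129 of 140, for the change with day 88 of 96 and 90 of 92, and for the contrast between the genes 57 of 60 and 6 of 6. Several of the other settings change only which genes enter the fit and leave a member's difference as it was. With 0 of 12 combinations passing in the main fits for seed or day, these counts say little on robustness. For leaf 96 of 96 and 10 of 12 moved by less than the endosperm SD. Where a value changed, the cause was not tested.

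Subtracting each library's median over genes turned the seed difference of mez2 body CHH to -0.12, mez3 upstream CG to -1.55 and mez3 upstream CHG to -0.91 percentage points, and the change with day of mez2 body CG to +0.77 and mez3 upstream CHG to +5.37. Day as a covariate turned the seed difference of mez2 body CHH to -0.69, mez3 body CG to -0.34 and mez3 body CHG to -3.37, and mez3 body CHH passed at +2.23. Against the 7- and 9-day endosperm alone the seed difference was -0.86 in mez2 body CHH, -1.78 in mez3 body CG and -1.31 in mez3 body CHG. With a minimum of 20 calls mez2 upstream CG passed, at -20.5. Against the 13-day endosperm alone the leaf difference was 7.46 in mez2 body CHG and 15.9 in mez3 body CG, beside 10.7 and 9.28 against all 8.

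Without 1 library at a time, the seed difference ranged over -0.33 to +0.77 percentage points in mez2 body CHH, -21.8 to -19.4 in mez2 upstream CG, -2.31 to +3.76 in mez3 body CHG and +1.24 to +1.60 in mez3 body CHH. The change with day ranged over -4.80 to +2.14 in mez2 body CG and -5.29 to +2.55 in mez3 upstream CHG. The difference of mez3 from mez2 ranged over -0.06 to +2.14 in body CHG and +0.283 to +0.758 in body CHH, and its contrast between seed and endosperm in body CG over -2.44 to +0.93.

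Counts over all genes, the background of the members, moved with the libraries and the settings. Without 1 library, 0 to 8705 genes passed for seed in upstream CHG (5291 with all), 2 to 218 in upstream CG (187) and 959 to 3409 in upstream CHH (2826), and for the body 74 to 378 in CG (375), 84 to 2258 in CHG (1307) and 1120 to 2622 in CHH (1762). Against the 7- and 9-day endosperm alone limma called 0 in each of these measures, with 2957 to 5947 at an unadjusted p under 0.05. With day as a covariate the seed counts were 0 (CG), 0 (CHG) and 2711 (CHH) upstream, with 3117 and 5823 at an unadjusted p under 0.05 in CG and CHG, and 31, 7 and 774 in the body. After subtraction of library medians they were 107, 76 and 1202 upstream and 185, 1137 and 1049 in the body. For the change with day, 0 to 765 passed in upstream CHH (693) and 0 to 6 in body CHH (9). The quasi-binomial model called 63 (CG) and 1762 (CHH) upstream and 70 (CG), 606 (CHG) and 923 (CHH) in the body for seed, and 27 in upstream CHH for day. Leaving out the leaf changed no value of the seed contrast, since 1 library in a group of its own adds nothing to the spread. With 2 seed libraries and 182 calls in the least covered value, small differences are not detectable.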
